A study of Mus musculus with 360 samples.

Results

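The 9 genes described here belong to the helix-loop-helix family of transcription regulators: the Twist factors Twist1 and Twist2, the E-proteins Tcf12, Tcf3 and Tcf4, and the Id inhibitors Id1, Id2, Id3 and Id4. They were chosen by name, as the partners and inhibitors of the Twist and Tcf12 proteins, and not by their values. Earlier results of these data were known at that choice. The members are 9 of the 24015 genes in the count tables. Read counts came from full-length RNA sequencing of 360 single CD51+;CD200+ skeletal stem/progenitor cells of wild-type CD-1 mice at postnatal day 3. The sources were 3 fibrous joints between skull bones, namely the posterior frontal suture (PF), the sagittal suture (SAG) and the coronal suture (COR), and the tibial growth plate (GP), and 2 plates of cells were sequenced for each tissue. All groups shared strain, age and genotype, with no treatment and no transgene, and the sort kept viable cells without the blood, endothelial and stromal surface proteins CD45, Ter119, Tie2, CD105, 6C3 and Thy1. The comparison of interest in the study is that of PF, the suture that closes early in the life of a mouse, with COR and SAG, which remain patent, and GP served as the reference.

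Helix-loop-helix proteins work in pairs. Twist1, a mesenchymal factor that restrains osteoblast differentiation, and its paralog Twist2 bind DNA at E-boxes, most often together with an E-protein, a broadly expressed partner. Id proteins have the pairing domain without the DNA-binding region, so they hold E-proteins in pairs that cannot bind DNA, and their genes are well-known targets of BMP signalling. In people, loss of one copy of TWIST1 or of TCF12 is a known cause of premature fusion of the coronal suture, and mice that lack one copy of Twist1 are a model of it. Tcf4 here is the E-protein gene, and not the Wnt effector Tcf7l2, for which the same short name is in use.

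The positions of these genes were read from the GENCODE annotation of mm9, the build of the count tables. Twist1 lies on the plus strand of chromosome 12 (34642536 to 34644682), Twist2 on the plus strand of chromosome 1 (93698038 to 93744605), Tcf12 on the minus strand of chromosome 9 (71692059 to 71959626) and Tcf3 on the minus strand of chromosome 10 (79872259 to 79896392). Id1 lies on the plus strand of chromosome 2 (152561987 to 152563146), Id2 on the minus strand of chromosome 12 (25778666 to 25780957), Id3 on the plus strand of chromosome 4 (135699412 to 135701670) and Id4 on the plus strand of chromosome 13 (48356796 to 48359405). Tcf12 overlaps the pseudogene Rpl15-ps2, Tcf4 a 5S_rRNA gene, and Id4 the gene A330033J07Rik. Since it is not stated whether counting used strand, reads of these overlapping pairs may have been shared, and reads from stretches that Twist1 and Twist2 have in common are likewise uncertain.

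Promoter sequences are shown for 1 gene of each role, because E-boxes are the sites that Twist and E-protein pairs bind. Each run is the 250 bases before the transcription start, 5′ to 3′ on the strand of the gene, from the RefSeq promoter table (build GRCm38.p6), and each was found once in mm9 by exact match. The positions are chr12:34642286-34642535 (plus strand) for Twist1, chr9:71959627-71959876 (minus strand) for Tcf12 and chr12:25780958-25781207 (minus strand) for Id2. Capitals mark E-boxes, searched as CANNTG, which reads the same on both strands.
Twist1: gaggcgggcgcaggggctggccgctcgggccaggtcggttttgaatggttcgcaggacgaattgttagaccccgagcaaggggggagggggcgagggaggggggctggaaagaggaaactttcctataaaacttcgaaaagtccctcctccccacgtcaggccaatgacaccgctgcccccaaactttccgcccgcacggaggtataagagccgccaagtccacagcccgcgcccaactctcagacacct
Tcf12: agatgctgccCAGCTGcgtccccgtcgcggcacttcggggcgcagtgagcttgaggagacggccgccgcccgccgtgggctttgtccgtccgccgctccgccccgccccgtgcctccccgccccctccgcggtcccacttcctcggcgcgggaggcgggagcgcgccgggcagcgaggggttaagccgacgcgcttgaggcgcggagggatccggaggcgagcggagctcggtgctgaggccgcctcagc
Id2: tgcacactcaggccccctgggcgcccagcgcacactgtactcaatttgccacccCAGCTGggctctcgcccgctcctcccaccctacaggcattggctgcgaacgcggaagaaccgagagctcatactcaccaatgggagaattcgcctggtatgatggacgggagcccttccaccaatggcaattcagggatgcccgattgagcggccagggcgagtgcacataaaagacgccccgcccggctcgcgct
The Twist1 window held 0 E-boxes. The Tcf12 window printed here held 1, whose first base lay at position -240 from the start, and the Id2 window held 1 at position -196. Tcf12 has other RefSeq starts, whose windows differed. That at chr9:71959009-71959258 held 1 E-box at position -149, and that at chr9:71743904-71744153 held 0. An E-box was present in 66.2% of all 32851 RefSeq promoters of this length, so a match is a description of the letters and not a site. The motif GGCGCC, which also reads the same on both strands and overlapped no E-box in these windows, was present once before Id2, once before Id4 and in 9.59% of all promoters.

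A plate that stood apart has to be named before the values. After filtering, 325 cells remained (87 PF, 86 SAG, 74 COR and 78 GP, with 16 to 58 cells a plate), and 0 of them had counts identical to another cell's. The ribosomal RNA gene Rn45s took 86.8% of the reads on SAG plate 2 against 20.2% to 30.96% on the other 7 plates, and a median cell had reads of 875 genes there against 2111.5 to 3867. Levels below are therefore CPM, meaning reads of a gene, summed over the cells of a plate or tissue, on a scale where all reads other than Rn45s sum to 1000000, and SAG levels and shares are given for its plates too. Median reads other than Rn45s per cell ran from 125830 to 511698 over the plates and were 184232 on SAG plate 2. No animal is named for any cell, so each tissue is 1 sample, no difference has a p-value, and the 2 plates are the only spread. The 95% intervals (exact Poisson for CPM, Clopper-Pearson for shares) cover counting error only, since reads without molecular identifiers are not independent molecules, and cells of a tissue are not replicates of it, so intervals that part show no difference between tissues.

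SAG cells also differed in marker genes. The 8 chondrocyte markers summed to 19365 CPM on SAG plate 1 and 12171 on plate 2, against 188 to 4417 on the plates of the other tissues. The 10 immediate early genes, which respond to stress and handling, summed to 13959 and 17060 CPM in SAG against 372 to 2123 elsewhere. The 8 osteoblast markers all had reads in every tissue and summed to 61760 and 14736 CPM on SAG plates 1 and 2, against 50706 to 186920 elsewhere. Other cell types were read from their own lists. The 8 pericyte or smooth muscle markers summed to 1987 and 1816 CPM in GP, 829 and 987 in PF, 231 and 564 in COR, and 61.5 and 330 in SAG, where Rgs5, Myh11, Kcnj8, Abcc9 and Des were at 0. The 8 neural or glial markers reached 404 CPM on GP plate 2 and 205 on COR plate 2. The 8 endothelial markers reached at most 53.8 CPM on any plate, with Pecam1, Tek, Tie1 and Emcn at 0 in every tissue, and the 8 haematopoietic markers at most 41.1, with Cd52, Itgam and Cd79a at 0 in every tissue. Several of these sums rested on 1 cell of the plate. Such a cell gave 94.2% and 82.1% of the pericyte or smooth muscle sum on GP plates 1 and 2, and 55.8% on PF plate 2. It gave 64.1% of the osteoblast sum on SAG plate 1 and 57.6% of the chondrocyte sum on GP plate 2. The highest endothelial sum, on GP plate 1, came from 1 cell. The part of the marker differences in the values of the helix-loop-helix genes was not tested.

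Twist1 was a weakly read gene that was highest in PF and COR and lowest in GP. Its level was 18.1 and 24.1 CPM on PF plates 1 and 2, 25.02 and 18.3 in COR, 15.6 and 14.4 in SAG, and 16.4 and 8.46 in GP. PF and COR overlapped, both lay above SAG on every plate, and GP plate 1 lay above both SAG plates while GP plate 2 lay below them. Summed over cells the levels were 22.9 CPM in PF (95% interval 21.2 to 24.7), 18.9 in COR, 14.9 in SAG and 9.83 in GP.

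A read of Twist1 was present in 28.7% of PF cells (25 of 87, interval 19.5 to 39.4), 11.6% of SAG cells (10 of 86, 5.72 to 20.3), 40.5% of COR cells (30 of 74, 29.3 to 52.6) and 21.8% of GP cells (17 of 78, 13.2 to 32.6). SAG plate 1 had a share of 26.7% (8 of 30, 12.3 to 45.9), near that of PF. Thinning each cell to 100000 reads other than Rn45s left the shares at 30%, 10%, 35.2% and 19.4%, in the same order. On SAG plate 2, 2 of 56 cells had a Twist1 read, and 1 of them gave 65.8% of the reads there. Among cells with a read, the median Twist1 level was 42.3 CPM in PF, 48.9 in COR, 86.2 in SAG and 24.1 in GP. The SAG level rested on 10 cells, whose values ran from 10.5 to 542 CPM.

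Twist2, a paralog with a restricted role in skin and mesenchyme, was read less often than Twist1 in every tissue. It had a read in 8 PF, 2 SAG, 9 COR and 4 GP cells, and its levels were 4.23 and 8.69 CPM in PF, 8.58 and 0 in SAG, 2.16 and 10.5 in COR, and 0.405 and 7.18 in GP. The plates of one tissue differed as much as tissues did. A single cell gave 94.9% of the Twist2 reads of SAG, and SAG plate 2 had 0 reads in 0 of 56 cells, which allows up to 0.290 CPM and a read in up to 5.36% of cells. Twist2 stayed below 10 CPM in each tissue and was compared only under some of the alternative settings.

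**Figure D1:**
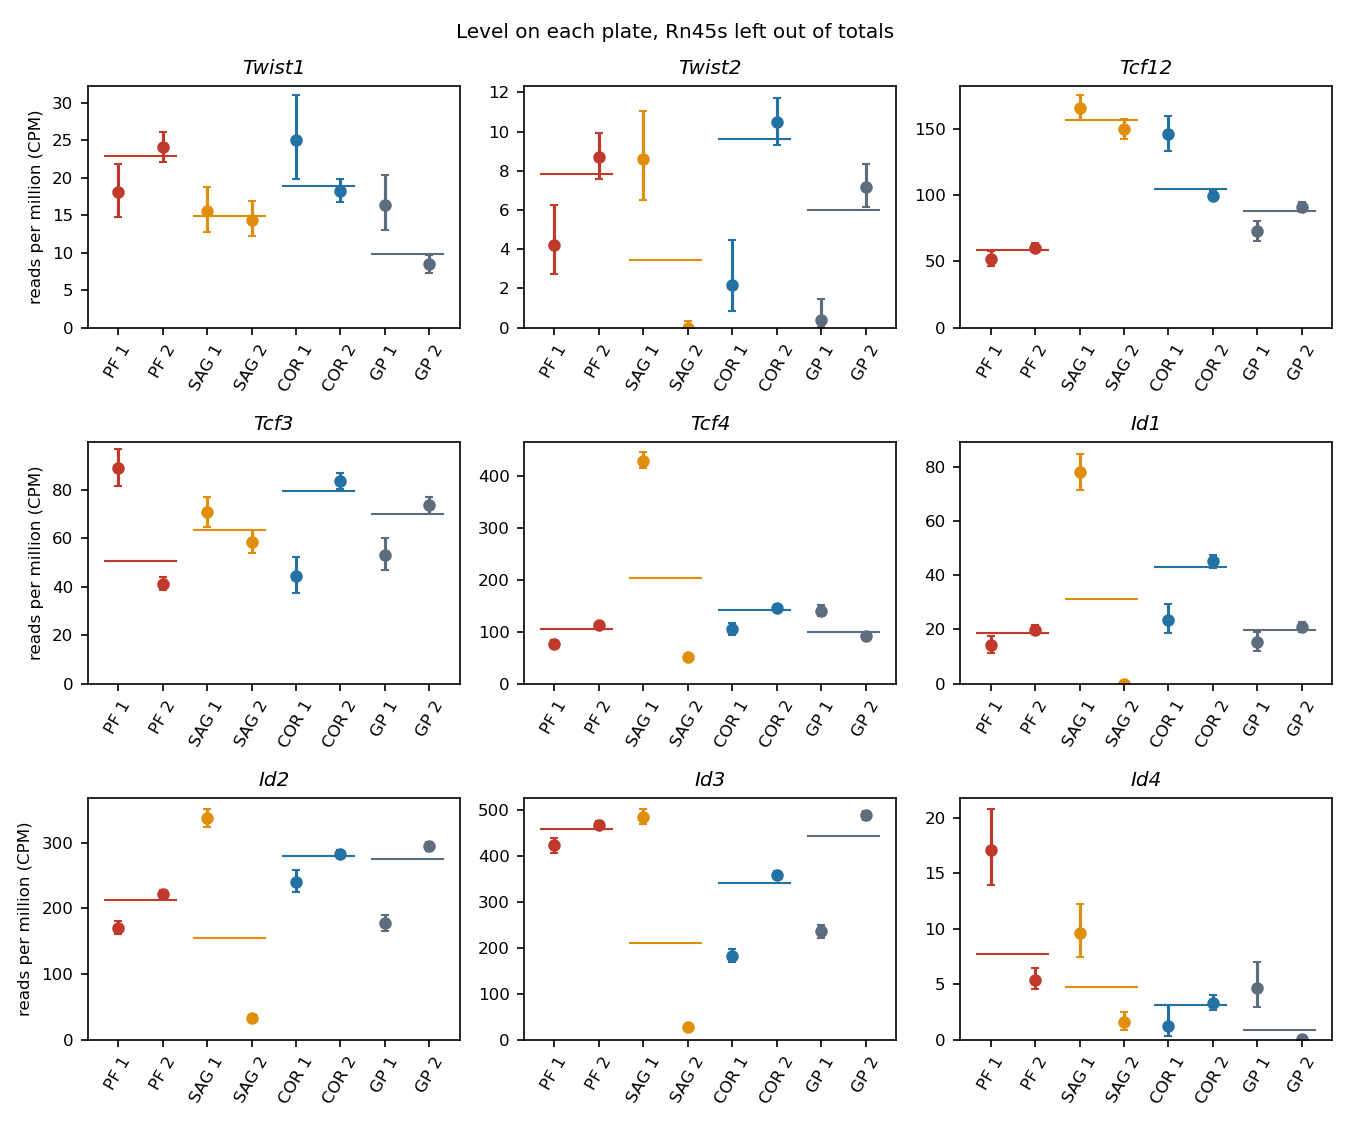
Level of each gene on the 8 plates, in CPM without Rn45s, on linear axes that start at 0. Points are plates with exact Poisson 95% intervals, and horizontal lines are the summed tissue. Tcf12 plates fell into separate ranges for the 4 tissues, narrowly so between SAG (166 and 150 CPM) and COR (146 and 99.8 CPM). Id1, Id2 and Id3 on SAG plate 2 lay at 0, 32.8 and 27.8 CPM.

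Among the E-proteins, Tcf12, the partner of Twist1 that is linked to coronal synostosis like Twist1 itself, was highest in SAG and lowest in PF. Its level was 52.1 and 60.5 CPM on the PF plates, 72.9 and 90.99 in GP, 146 and 99.8 in COR, and 166 and 150 in SAG. The plates of no tissue overlapped those of another, so PF, GP, COR and SAG followed each other in rising order of summed reads. The margin was narrow between SAG plate 2 (150 CPM) and COR plate 1 (146 CPM). Plates were apart in all 6 comparisons for 1.18% of the 10686 genes with at least 10 CPM in a tissue, and for Tcf12 alone among the 7 members at that level. The pattern was noticed in these values. With Rn45s counted in the totals SAG fell to 30.9 CPM, below the 43.1 of PF. As means over single cells, COR (153 and 95.4 CPM on plates 1 and 2) and GP (91.3 and 118) overlapped.

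The share of cells with a Tcf12 read followed another order. It was 27.6% in PF (24 of 87, interval 18.5 to 38.2), 32.6% in SAG (28 of 86, 22.8 to 43.5), 42.3% in GP (33 of 78, 31.2 to 54.02) and 54.1% in COR (40 of 74, 42.1 to 65.7). The SAG share was 43.3% on plate 1 and 26.8% on plate 2. After thinning PF stood at 28.6% (18.4 to 40.6) and COR at 50.7% (38.6 to 62.8). In SAG the higher level went with higher values in the cells that had a read, whose median was 310 CPM against 188 in PF, 152 in COR and 155 in GP.

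Tcf3, the E-protein gene best known from lymphocyte development, had no order among tissues that exceeded the plates. Its levels were 88.9 and 41.3 CPM in PF, 70.7 and 58.7 in SAG, 44.5 and 83.5 in COR, and 53.2 and 73.6 in GP. The ranges of all 4 tissues overlapped. A read was found in 47.3% of COR, 46.2% of GP, 28.7% of PF and 20.9% of SAG cells. The SAG share was 36.7% on plate 1 (11 of 30, interval 19.9 to 56.1) and 12.5% on plate 2 (7 of 56).

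Tcf4 was the E-protein gene with a read in the largest share of cells in each tissue, and it differed most between the SAG plates. Its levels were 76.1 and 113 CPM in PF, 105 and 146 in COR, 141 and 91.3 in GP, and 430 and 51.9 in SAG. SAG plate 1 lay above and SAG plate 2 below all plates of the other tissues, while PF, COR and GP overlapped. A read was present in 78.4% of COR cells (interval 67.3 to 87.1), 61.5% of GP cells (49.8 to 72.3), 52.9% of PF cells (41.9 to 63.7) and 43.02% of SAG cells (32.4 to 54.2). The SAG share was made of 90% on plate 1 (27 of 30 cells) and 17.9% on plate 2 (10 of 56 cells). After thinning the shares of COR and PF were 77.5% (66 to 86.5) and 54.3% (41.9 to 66.3), with intervals that overlapped.

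**Figure D2:**
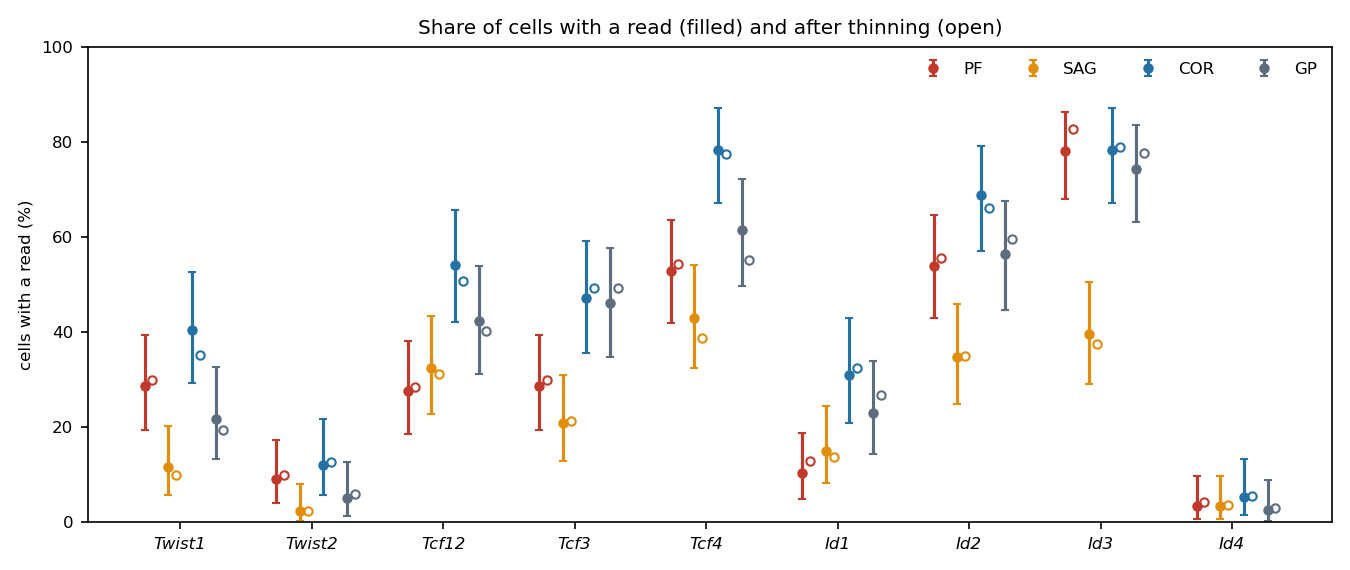
Share of cells with at least 1 read of each gene in the 4 tissues, in percent. Filled points carry Clopper-Pearson 95% intervals and open points are the shares after thinning each cell to 100000 reads other than Rn45s. COR had the highest share for all 9 genes before thinning and for 8 of 9 after it, but for 5 and 4 of 9 when SAG plate 2 is left out (not drawn), and Id3 was read in 74.4% to 78.4% of cells outside SAG.

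Id1 was highest in COR among the tissues, with 42.9 CPM against 18.7 in PF, 19.7 in GP and 31.1 in SAG. By plate it stood at 23.5 and 45.1 CPM in COR, 14.2 and 19.8 in PF, 15.2 and 20.7 in GP, and 77.98 and 0 in SAG. Both COR plates lay above all PF and GP plates, by a narrow margin for plate 1, and PF and GP overlapped. SAG held the highest and the lowest value of all plates, and the 0 reads on SAG plate 2 allow up to 0.290 CPM there and a read in up to 5.36% of its 56 cells.

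Reads of Id1 were present in 31.1% of COR cells (23 of 74, interval 20.8 to 42.9), 10.3% of PF cells (9 of 87, 4.84 to 18.7), 23.1% of GP cells (18 of 78, 14.3 to 33.997) and 15.1% of SAG cells (13 of 86, 8.30 to 24.5). All 13 SAG cells were on plate 1, where the share was 43.3% (25.5 to 62.6), above that of COR. After thinning COR stood at 32.4% (21.8 to 44.5) and PF at 12.9% (6.05 to 23.01). In PF 1 cell gave 50.2% of the Id1 reads, and in COR the leading cell gave 11.8%.

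Id2 was read at 170 and 222 CPM in PF, 241 and 283 in COR, 178 and 295 in GP, and 338 and 32.8 in SAG. Both COR plates lay above both PF plates, GP overlapped both tissues, and the SAG plates were again the highest and the lowest of the 8. A read was present in 68.9% of COR, 56.4% of GP, 54.02% of PF and 34.9% of SAG cells, and in SAG it was 60% on plate 1 (18 of 30) and 21.4% on plate 2 (12 of 56).

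Id3 was the Id gene with a read in the largest share of cells in each tissue. Its levels were 423 and 467 CPM in PF, 183 and 359 in COR, 236 and 488 in GP, and 485 and 27.8 in SAG. PF lay above COR on every plate. GP overlapped both, with a lower plate above COR plate 1. A read was present in 78.2% of PF, 78.4% of COR and 74.4% of GP cells. In SAG it was 86.7% on plate 1 (26 of 30) and 14.3% on plate 2 (8 of 56).

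Id4, an Id gene best known from the nervous system, was read in few cells. It had a read in 3 PF, 3 SAG, 4 COR and 2 GP cells, and its summed level was 7.69, 4.76, 3.09 and 0.878 CPM. In each tissue 1 cell gave between 56.7% and 92% of the reads, so its level describes single cells. Id4 stayed below 10 CPM in each tissue and was compared only under some of the alternative settings.

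Levels of different genes can be set side by side only per length, as CPM per kilobase of annotated exon. On that scale Id3 (118 to 256 over the tissues) and Id2 (122 to 220) stood above Id1 (16.2 to 36.97) and above Tcf12 (12.1 to 32.2), Tcf3 (12.5 to 19.7) and Tcf4 (8.15 to 16.6). Twist1 (6.09 to 14.2) overlapped the E-proteins, and Twist2 (2.58 to 7.26) and Id4 (0.529 to 4.63) were lowest. Exon lengths were taken over all annotated transcripts of a gene, 12250 bases for Tcf4, so a gene that makes only its short transcripts is understated.

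The share of cells with a read was highest in COR for 9 of the 9 genes, and for 8 of 9 after thinning, when Id3 was highest in PF at 82.9%. Both counts rested on SAG plate 2. Without it they were 5 of 9 and 4 of 9, since on SAG plate 1 (30 cells) Tcf4, Id1, Id3 and Id4 were read in a larger share of cells than in COR, joined by Id2 after thinning (25 cells). COR was the highest tissue for 61.8% of the 10686 genes before thinning and for 51.3% after it, or 51.1% and 40.6% without SAG plate 2, and COR cells had the most reads other than Rn45s, with a median of 448803 per cell against 184673 to 369308 in the other tissues.

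**Figure D3:**
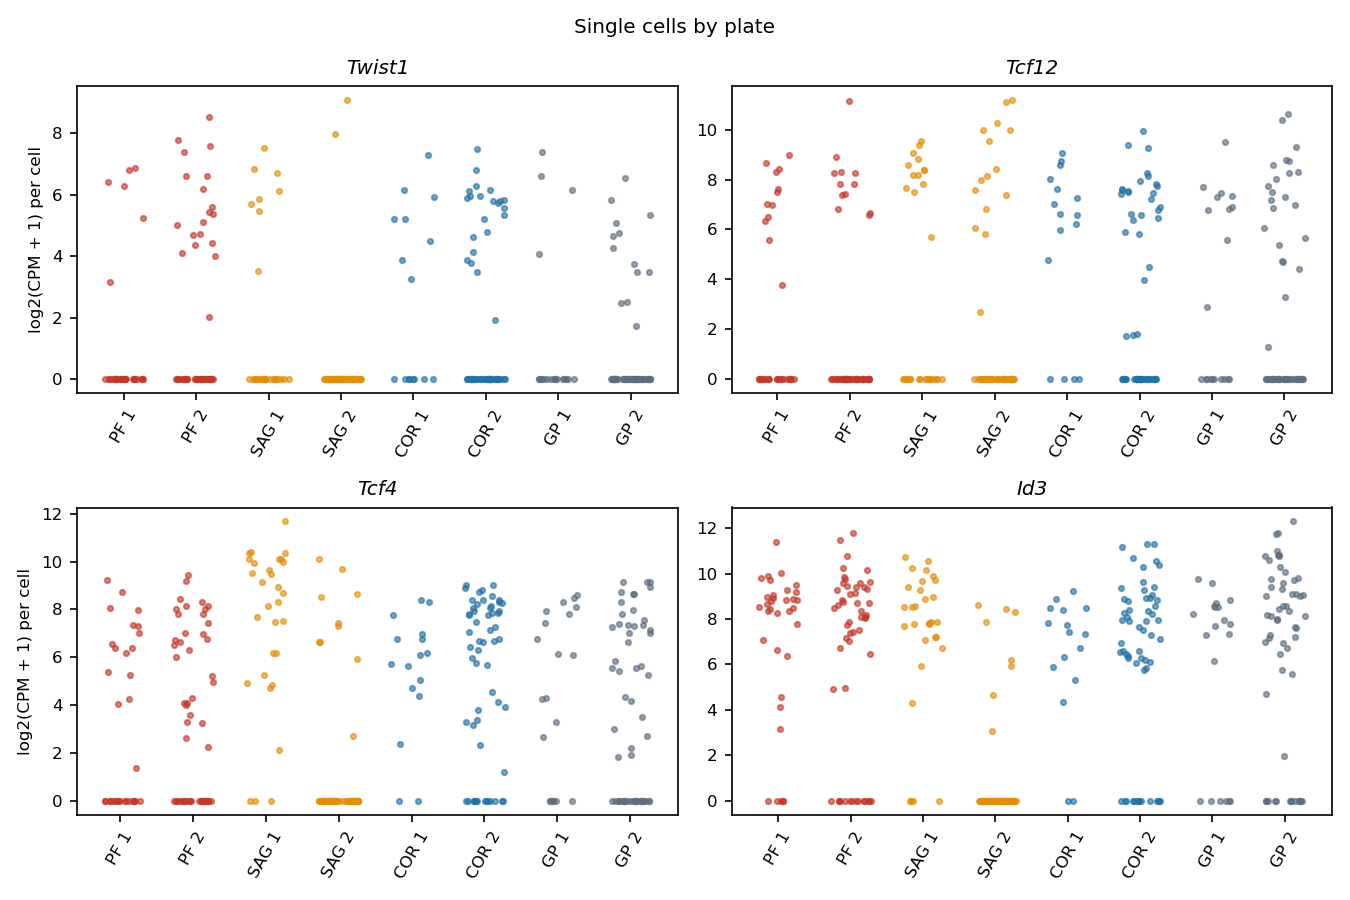
Level per cell, as log2(CPM + 1), of 4 genes on each plate. Each point is a cell, points at 0 are cells without a read, and horizontal jitter within a plate has no meaning. On SAG plate 2 most cells sit at 0 for Tcf4 (46 of 56) and Id3 (48 of 56), and Tcf12 shows high values in the 15 cells with a read.

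The balance of inhibitors and E-proteins can be read without any total, as the share of Id reads among all reads of the 4 Id and 3 E-protein genes. It was highest in PF, with 74.2% and 76.9% on plates 1 and 2, followed by GP with 61.9% and 75.8%, COR with 60.2% and 67.7%, and SAG with 57.7% and 19.2%. Both PF plates lay above both COR plates and both SAG plates, both SAG plates lay below all others, and GP overlapped PF and COR. Summed over cells the share was 76.4% in PF (interval 75.9 to 76.9), 74.1% in GP, 67.1% in COR and 48.7% in SAG. Per kilobase of exon, Id reads exceeded E-protein reads 6.29 to 14.3 times on the 7 plates other than SAG plate 2, where the ratio was 0.851.

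Averaged over cells instead of reads, the share of Id reads kept PF plate 2 highest, at 70.5%, and SAG lowest, at 51.2% and 44.1% on plates 1 and 2. PF plate 1 (63.3%) then lay within the range of GP (61.3% and 63.9%), and COR stood at 55.96% and 59.9%. Reads of both an Id and an E-protein gene were found in 53 of 87 PF, 61 of 74 COR, 63 of 78 GP and 35 of 86 SAG cells. PF had 21 cells with an Id read and no E-protein read and 8 of the opposite kind, whereas COR had 6 and 6 and GP 5 and 6. SAG plate 2 alone held 22 cells with neither.

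**Figure D4:**
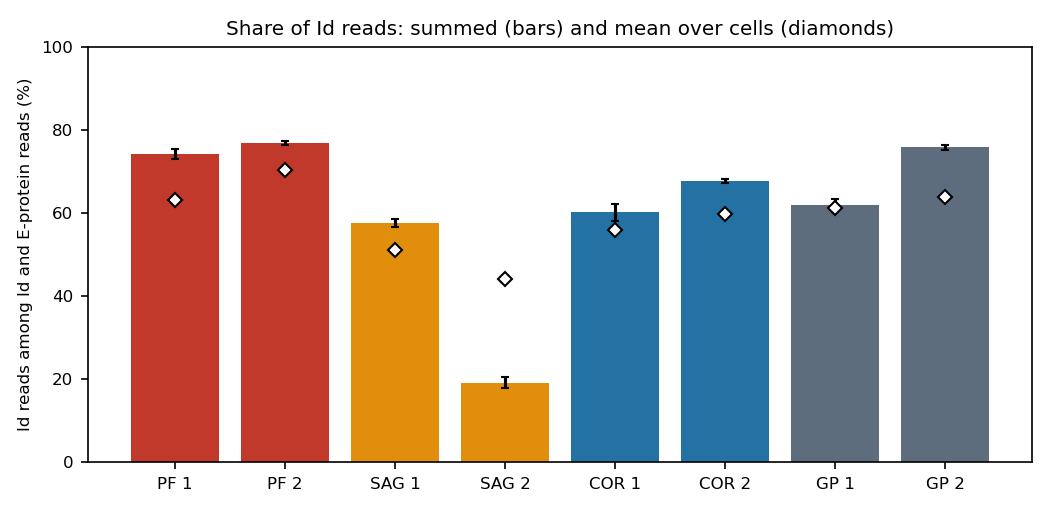
Reads of the 4 Id genes as a percentage of all reads of the Id and E-protein genes, by plate. Bars are summed reads with Clopper-Pearson 95% intervals, which cover counting error only, and diamonds are means over the cells with a read of either kind. Both PF bars lie above both COR bars, and SAG plate 2 stands at 19.2%.

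Twist1 reads were mostly found in cells that also held a read of an E-protein gene. This was so for 20 of 25 Twist1 cells in PF, 9 of 10 in SAG, 28 of 30 in COR and 17 of 17 in GP, or 74 of 82 in all. E-protein reads were common whether or not Twist1 was read. Their share of all cells was 90.5% for COR, 88.5% for GP, 70.1% for PF and 60.5% for SAG. The SAG share was made of 96.7% on plate 1 and 41.1% on plate 2. The high joint counts alone therefore do not show a link between the genes. For single partners the joint counts lay near the product of the separate shares. Twist1 and Tcf12 were read together in 8 PF cells (6.90 from the separate shares), 17 COR cells (16.2), 9 GP cells (7.19) and 4 SAG cells (3.26). Twist1 with Tcf4 gave 14 (13.2), 24 (23.5), 14 (10.5) and 8 (4.30) in the same order, and on SAG plate 1 alone 8 against 7.20.

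Within a tissue, the levels of these genes followed each other weakly from cell to cell. Over the 36 pairs, Pearson's r of log2(CPM + 1) ran from -0.19 to 0.23 in PF (87 cells), -0.25 to 0.27 in COR (74 cells) and -0.15 to 0.34 in GP (78 cells). In SAG it reached 0.54 for Tcf4 with Id1 over both plates and 0.40 within plate 1 (30 cells). Cells of a plate share library preparation and differ in depth, and sparse counts limit such values, so they are given as a description only. The median cell held reads of 4 of the 9 genes in COR, 3 in PF and GP and 2 in SAG, where it was 4 on plate 1 and 1 on plate 2.

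Across the 8 plates Id1, Id2 and Id3 varied together, and Id4 did not follow them (r between 0.12 and 0.33). Pearson's r of log2(CPM + 1) was 0.97 for Id1 with Id2, 0.92 for Id2 with Id3 and 0.88 for Id1 with Id3, with SAG plate 2 at the low end of each. Without that plate the values over 7 plates were 0.84, 0.36 and 0.27, so the joint pattern with Id3 rested on 1 plate. Tcf4 with Id1 was 0.79 over 8 plates and 0.86 over 7, with SAG plate 1 at the high end of both. Twist1 had no partner among the 9 genes above 0.43, which was its value with Id4, and Tcf12 with Id1 changed from -0.07 to 0.76 without SAG plate 2.

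By the same measure over all genes with at least 10 CPM in a tissue, the genes most like each member over the 8 plates were the following. Twist1 was most like Ppfibp2 (r = 0.93), Tcf12 most like Fyttd1 (0.94), Tcf3 most like Rnf166 (0.97) and Tcf4 most like Mmp14 (0.98). Id1 was most like Tmem66 (0.99), Id2 most like Eif5 (0.998) and Id3 most like Mrpl49 (0.99). Without SAG plate 2 the first gene stayed Rnf166 for Tcf3 and Eif5 for Id2, and became Phax for Twist1, Zfp317 for Tcf12, Gcc1 for Tcf4, Gtf2a2 for Id1 and Etnk1 for Id3. With 10685 genes compared over 8 plates, high values arise for any pattern.

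Differences between tissues were then set against the spread of plates. A gene was called where all 4 ratios of a plate of one tissue to a plate of the other had 1 sign and the log2 ratio of the summed tissues was at least 1 in size, on the scale of CPM + 1, among the 10686 genes with at least 10 CPM in a tissue. Of the 9 genes, 7 reached that level. Between PF and COR the plates did not overlap for 4 of these 7 (Tcf12, Id1, Id2 and Id3) and for 31.2% of all genes, and 1 was called against 11.9% of all genes. That gene was Id1, lower in PF by a log2 ratio of -1.15 (plate ratios -1.60 to -0.23). Without COR plate 2 its ratio was -0.31 and was not called. In the same comparison 2 of 6 pericyte or smooth muscle markers (Rgs5 and Notch3) were called higher in PF. So were 1 of 8 osteoblast markers (Dmp1) and 1 of 2 haematopoietic markers (Lyz2). Of 10 immediate early genes, 2 (Egr2 and Junb) were called lower. Rgs5 was read in 3 PF and 0 COR cells, Lyz2 in 3 and 1, and Egr2 in 1 and 3. The part of these lists was not tested.

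Between PF and SAG the plates did not overlap for 2 of 7 genes (Twist1 and Tcf12; 34.3% of all genes), and 1 was called (29.2% of all genes). Tcf12 was lower in PF, at -1.40 (plate ratios -1.66 to -1.30), and with Rn45s counted in the totals the ratio turned to 0.47 while the median of all genes moved from 0.30 to 2.08. Twist1 was 0.59 (0.20 to 0.70). With SAG plate 1 alone Tcf12 (-1.48), Tcf4 (-2.01) and Id1 (-2.00) were called, against 33.2% of all genes.

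Between SAG and COR the plates did not overlap for Twist1 and Tcf12 (2 of 7, against 37.9% of all genes), and 0 of 7 were called against 31.5% of all genes. Their log2 ratios were -0.33 for Twist1 (plate ratios -0.76 to -0.22) and 0.58 for Tcf12 (0.04 to 0.73). With SAG plate 1 alone Tcf4 was called, at 1.59 (plate ratios 1.55 to 2.02), against 31.8% of all genes.

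Between PF and GP the plates did not overlap for Twist1 and Tcf12 (2 of 7, against 35.2% of all genes), and 1 was called against 16.2% of all genes. Twist1 was higher in PF, at 1.14 (plate ratios 0.13 to 1.41), and was no longer called without GP plate 2 (0.46) or without PF plate 2 (0.82). Beside it, the 10 immediate early genes summed to 497 CPM in PF and 1988 in GP, 7 of them called lower in PF. Called lower in PF were also 2 of 8 chondrocyte markers and 1 of 6 pericyte or smooth muscle markers, and 4 of 8 osteoblast markers were called higher. The part of these lists in the difference was not tested. Tcf12 was -0.57 (-0.79 to -0.26).

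Between SAG and GP the plates did not overlap for Tcf12 alone (1 of 7, against 36.2% of all genes), at 0.83, and 0 of 7 were called against 30.7% of all genes. With SAG plate 1 alone Tcf4 (2.10) and Id1 (1.93) were called, against 33.6% of all genes. Between COR and GP the plates did not overlap for Twist1, Tcf12 and Id1 (3 of 7, against 35.3% of all genes), and 1 was called against 13.4% of all genes. Id1 was higher in COR, at 1.08 (0.17 to 1.51), and without COR plate 2 its ratio was 0.24 and was not called. Beside it, 5 of 8 chondrocyte markers, 4 of 6 pericyte or smooth muscle markers and 6 of 10 immediate early genes were called lower in COR, 3 of 8 osteoblast markers were called higher, and their part was not tested. Twist1 was 0.88 (0.15 to 1.46). In all 6 comparisons the share of called members was near or below that of all genes, so the calls say nothing particular of these genes as a group.

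Within SAG, 4 of 7 genes were higher on plate 1 by at least 1 on the log2 scale, against 47.5% of all genes. They were Tcf4 (3.03), Id2 (3.33) and Id3 (4.08), and Id1, which had no read on plate 2. Twist1 (0.10), Tcf12 (0.15) and Tcf3 (0.26) differed little between those plates. Of all genes 26.5% had no read on SAG plate 2, against 2.85% to 11.97% on the others, and whether the low Id values there are part of that loss was not tested.

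**Figure D5:**
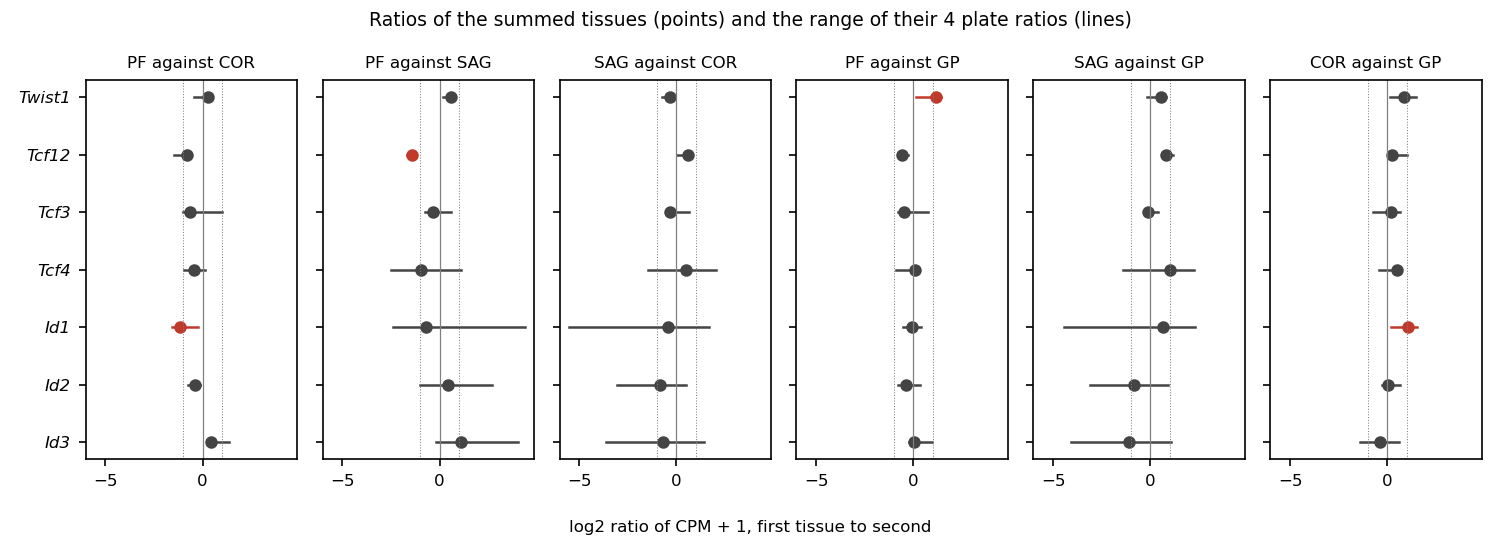
Log2 ratios of CPM + 1 for the 7 genes with at least 10 CPM in a tissue, in 6 comparisons of tissues. Points are the summed tissues, lines span the 4 plate ratios, dotted lines mark -1 and 1, and red marks genes called. The called ratios were -1.15 and 1.08 for Id1, -1.40 for Tcf12 and 1.14 for Twist1, and lines of Tcf4, Id1, Id2 and Id3 are long wherever SAG is compared.

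Other helix-loop-helix genes give the surroundings of these values. Of 26 tissue-restricted factors, 5 reached 10 CPM. Olig1 and Olig2 each had reads in 1 PF cell only, and Tal1 in 1 SAG cell only. Atoh8 stood at 28.4 and 100 CPM in SAG, with reads in 13 cells, against at most 7.67 CPM on any other plate. Scx, a factor of tendon and ligament progenitors, was lower than in GP in all 3 sutures (log2 ratios -2.62 for PF, -3.93 for SAG and -2.32 for COR), with 36.6 and 64.3 CPM on the GP plates and at most 25.3 on any suture plate. Of 12 genes for Hes, Hey and related repressors, 6 reached that level. Hey1, a Notch target, was highest in COR with 12.05 and 28.4 CPM against at most 5.82 on any other plate. Heyl was highest in PF with 63.1 and 32.9 CPM. Both rested on few cells. Hey1 had reads in 2 PF, 0 SAG, 9 COR and 2 GP cells, and Heyl in 5, 1, 2 and 5. Bhlhe40 was lower in PF (65.4 and 23.6 CPM) than in SAG (199 and 172) and GP (177 and 174). Among the 4 Ebf factors, 1 was called between PF and COR (11.9% of all genes) and 4 between COR and GP (13.4% of all genes), with Ebf1 at 12.7 and 9.76 CPM in COR and 83.4 and 40.4 in GP.

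Genes of BMP signalling, which is known to drive Id transcription, were described from a list of 11 Smad and feedback genes, 9 of them at 10 CPM or more. Called were 1 gene between PF and COR, 2 between PF and SAG, 2 between SAG and COR, 2 between PF and GP, 1 between SAG and GP and 1 between COR and GP. Of all genes 11.9%, 29.2%, 31.5%, 16.2%, 30.7% and 13.4% were called in the same order. Out of 9 genes, the counts lay near or below these shares, except that between PF and GP, which lay above. Smad1, a receptor-activated signal carrier, was lower in PF (32.97 and 18.3 CPM) than in COR (89.6 and 41.5) and SAG (78.4 and 142). Bambi, a decoy receptor, stood at 186 and 128 CPM in COR, 84.9 and 63.8 in PF, 89.5 and 115 in GP, and 102 and 1.16 in SAG. The median log2 ratio of the list was -0.05 between PF and COR, against 0.01 for all genes, and -0.38 between PF and SAG, against 0.30.

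A list of 16 other genes linked to craniosynostosis or suture closure was read beside Twist1 and Tcf12, and 15 of them reached 10 CPM. Between PF and COR 3 were called (11.9% of all genes). The FGF antagonist gene Spry1 and the Notch ligand gene Jag1 were higher in PF, and Gli3, a hedgehog effector gene, was lower. Spry1 lay below 10 CPM in both tissues (8.48 in PF, 0.843 in COR), with reads in 5 and 2 cells. Jag1 stood at 92.8 CPM in PF and 26.1 in COR, with reads in 30 and 22 cells. In SAG Jag1 stood at 14.9 CPM, also below PF. The study reported Jag1 and Cdc45 as lower in PF, from bulk sequencing and RT-PCR, which are other measures than these single-cell sums. Cdc45 stood at 9.54 CPM in PF, 7.27 in COR and 0 in SAG, with reads in 3, 5 and 0 cells. The median log2 ratio of the list between PF and COR was 0.24, against 0.01 for all genes. Between PF and GP 5 were called (16.2% of all genes), of which Zic1, Msx2 and Alx4 were higher in PF, and Spry1 and Gli3 lower. In comparisons with SAG, 7 genes were called higher and 3 lower in SAG than in PF, 9 higher and 1 lower than in COR, and 10 higher and 3 lower than in GP, where 29.2%, 31.5% and 30.7% of all genes were called. Of these, Fgfr3 stood at 171 CPM on SAG plate 1 and 1613 on plate 2, the plate that stood apart. Erf stood at 6.26 and 425 CPM, Zic1 at 10.6 and 214, Efnb1 at 40.7 and 346, and Alx4 at 18.8 and 145. The SAG ratios of these 5 genes rested largely on plate 2. Smad6 (43.1 and 15.5), Gli3 (57.5 and 50.9) and Msx2 were higher on plate 1. Calls with SAG plate 1 alone are not given for this list. Msx2, a homeobox factor of the suture mesenchyme, stood at 22.1 and 40.5 CPM in PF, 36.4 and 37.7 in COR, 95.4 and 54.9 in SAG, and 0 and 5.91 in GP.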

How the data were processed

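Single cells were sequenced after SMART-seq2-type amplification with Nextera XT libraries. The 8 deposited tables hold raw read counts per gene and cell, made by the authors with STAR 2.5.3a and HTSeq on mm9, per the submitters' processing notes. The use of strand and the gene annotation are not given in the sources used here. Every column was matched to a cell by its title, and 0 columns were left without a cell. For 1 cell titled SAG the description named a PF plate, and it was kept as SAG.

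Cells were kept from 500 detected genes and 10000 reads upward. Counts were summed over cells and scaled without Rn45s, and ratios are log2 of CPM + 1, which understates changes of weakly read genes. For a count of 0 the limit given is that of 3 counts. Shares of cells were repeated with each cell thinned to 100000 reads, Rn45s excluded, and 17 PF, 6 SAG, 3 COR and 11 GP cells were too shallow for this. No doublet caller was run, because cells were sorted singly into wells. The sources used here tie no cell to an animal, and whether cells of several animals shared a plate is not stated.

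The members and gene lists were chosen with earlier results of these data known. Named beside the members are genes of those lists that were called in a comparison, at most the 3 with the largest ratios per list and comparison, and the genes most like each member over plates. The calling rule was tried on simulated PF and COR plates. The changes planted there were larger than the ratios called for the members, so that trial does not bear on calls of this size. Alternatives were other totals (with Rn45s, or TMM factors of edgeR 4.0.16 in R 4.3.3), other cell and gene filters, means over cells, leading cells left out, thinning, other thresholds and each plate left out. Python 3.11.15, numpy 2.4.6, pandas 2.3.3 and scipy 1.17.1 were used.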

Additional observations from a re-analysis of the deposited data

How the results depend on the processing

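The cause of each change below was not tested unless the alternative's own construction shows it. With Rn45s counted in the totals, Tcf12 between PF and SAG turned from -1.40 to 0.47. Twist1 was then the 1 gene called between SAG and COR, against 32.7% of all genes. A stricter cell filter (1500 genes, 50000 reads) left 237 cells and 0 of SAG plate 2. It called 2 genes between PF and COR (11.7% of all genes) and 3 between PF and SAG (32.9%). It also called 1 between SAG and COR (32.1%) and 2 between SAG and GP (34.3%). Means of single cells called 2 genes between PF and COR (Id1 and Id4, against 15.8% of all genes). They called 2 between PF and SAG (Tcf12 and Id4, 30.4%) and 2 between COR and GP (Twist1 and Id1, 16.8%). Without the leading cell of each plate 2 were called between PF and SAG (30.2% of all genes) and 1 between SAG and COR (33.6%). Id1 between COR and GP (1.29) was lost. Thinning called 2 genes between PF and COR (Id1 and Id4, against 14.6% of all genes). Between PF and SAG it called 2 (Id3 and Id4, 29.1%), but not Tcf12 (-0.98). Twist1 between PF and GP was not called with means of single cells (1.27) or after thinning (1.25). Id4 was called there in both settings (20.3% and 19.2% of all genes). Testing genes with any read called 2 between PF and COR (Id1 and Id4, against 10.5% of all genes). It called 2 between PF and GP (Twist1 and Id4, 14.1%). The Id4 reads of PF came from 3 cells. A threshold of 0.58 called 2 between PF and COR (20.3% of all genes) and 2 between PF and SAG (32.7%). It called 1 between SAG and GP (34.2%) and 2 between COR and GP (22.2%). A threshold of 2 called 0 in each of the 6 comparisons, against 3.94% to 17.2% of all genes. TMM factors, no cell filter, a pseudocount of 0.1 and leaving out the cell with 2 tissue labels gave the same calls.

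Leaving out each plate in turn, the genes called ran from 1 to 2 between PF and COR, 1 to 5 between PF and SAG, 0 to 4 between SAG and COR, 0 to 1 between PF and GP, 1 to 3 between SAG and GP and 1 to 2 between COR and GP. Of all genes, 19.2% to 31.6% were called between PF and COR and 33.2% to 72.8% between PF and SAG. Between SAG and COR it was 31.8% to 73.9%, and between PF and GP 23.6% to 35.5%. Between SAG and GP it was 33.6% to 74.04%, and between COR and GP 20.4% to 33.7%. The highest SAG counts came with SAG plate 2 alone, where 72.8%, 73.9% and 74.04% of all genes were called against PF, COR and GP. Of the values of 54 ratios, 46 of 216 with a plate left out and 41 of 486 under the other settings had the other sign, and 204 of 216 alternative shares of cells stayed within their interval. No paired analysis was possible because no animal is named and each tissue is 1 sample. The labels do not say whether plates of the same number were handled together.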
